A study of Mus musculus with 42 samples.

Results

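Mouse colonic organoids treated for 72 hours with IL-1α and IL-1β together were compared with untreated organoids by RNA-seq. The comparison was chosen by its table: all 3 IL-1 libraries (replicates 1, 2 and 3) and all 3 control libraries (replicates 1, 2 and 4) of the 72 h IL-1 table entered, which is 6 of the 42 samples of the series. Every library came from organoids labelled genotype WT. The study's results name crypts of Muc2-mCherry reporter mice as the source of colonic organoids for its cytokine treatments. Its methods describe the sequenced organoids as distal colon organoids. The treated wells received 10 nM of the cytokines for 72 h, and the controls received none. All organoids shared a medium with EGF, Noggin, R-spondin1, Wnt3a-conditioned medium and the GSK3 inhibitor CHIR, which together keep stem cells dividing. Such cultures are grown from crypts, apart from the immune and stromal cells of the colon wall. The series also holds IL-17A for 72 h (10 nM, replicates 1, 2 and 3) and IL-1 for 12 h (10 nM, replicates 1, 3 and 4), which are used below only to show where 72 h of IL-1 differed. The labels do not say whether replicates were separate animals or cultures, so p-values measure the spread between these libraries, which may be technical.

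IL-1α and IL-1β are alarm cytokines that bind the same receptor, Il1r1, with its partner Il1rap. The adaptor Myd88 and kinases of the Irak family carry the signal to NF-κB, a family of transcription factors held in the cytoplasm by inhibitors such as Nfkbia. NF-κB switches on chemokines, antimicrobial proteins and its own inhibitors, which limit the response. In the colon the epithelium renews itself from Lgr5-positive stem cells at the crypt base, through dividing progenitors, into absorptive colonocytes and into goblet, enteroendocrine, tuft and deep crypt secretory cells.

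The libraries held 15822340 to 17494935 reads in the controls and 16014330 to 17592514 with IL-1, recovered from the deposited normalized counts. Mitochondrially encoded transcripts took 4.15 to 5.23% of reads in the controls and 3.08 to 4.04% with IL-1, and the 10 highest genes took 6.57 to 9.08% in any library. The epithelial identity genes were high in every library: Epcam, a surface protein of epithelial cells, stood at 19769, 19149 and 19103 normalized counts in control replicates 1, 2 and 4 and at 42294, 26821 and 36330 in IL-1 replicates 1, 2 and 3. None of the 13 epithelial identity genes passed the threshold, and their median log2 fold change was 0.65. Summed markers of fibroblasts were 0.8 to 7.6 in the controls and 3.3 to 19.3 with IL-1, and those of T and B cells 2.7 to 11 and 4.4 to 8.4. Summed macrophage markers were 152.6 to 191.6 and 216.1 to 491.3, and none of the 3 tested was called. These sums cover only the markers with values: 2 of 8 for fibroblasts, 1 of 8 for T and B cells and 4 of 8 for macrophages. Of the neutrophil markers the table lists Ly6g alone, which was 2012, 2245 and 2259 in the controls and 13521, 8180 and 13053 with IL-1.

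Control replicates 1 and 4 at 72 h hold the same reads as control replicates 2 and 4 at 12 h: all 14537 genes present in both tables had equal read counts (100.0%). These reads thus stand under both times, and for 2 of the 3 controls time in culture and treatment cannot be told apart. Control replicates 2 and 4 at 72 h also lay close together, with a mean chi-square of 3.55 per gene where the other control pairs gave 72.8 and 77.9. Counted as separate libraries, the 3 controls gave 2998 genes that passed the threshold. With control replicates 2 and 4 averaged into 1 library the number was 2196, of which 1088 were higher and 1108 lower, and 72.0% of the 2998 genes were among them. With control replicate 2 alone, the only control whose reads appear under a single label, 1 gene was called and 3580 had an unadjusted p below 0.05.

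A gene was called when limma gave a Benjamini-Hochberg adjusted p below 0.05 and a fold change of at least 2, which is 1 on the log2 scale. Genes whose normalized counts averaged 10 or more entered the test, 13023 in all. Of these, 1414 (10.9%) were higher with IL-1 and 1584 (12.2%) were lower, 23.0% in all. The 6 libraries separated by treatment along the first principal component, which held 65.8% of the variance. The second held 16.4% and placed control replicate 1 (45.3) and IL-1 replicate 1 (45.7) together. The other libraries of both groups lay at -32.2 to -18.3. A total of 432 genes rose by at least 4-fold and 476 fell by as much, and 36 and 15 passed 16-fold. In 7126 genes (54.7%) the control and IL-1 libraries did not overlap. The median log2 fold change over all genes was -0.000856, which the DESeq2 scaling of the deposited counts holds near 0. Normalized counts summed to 14835278 to 15097420 in the controls and 16849462 to 19297563 with IL-1. The IL-1 libraries were unequal: replicate 2 was nearest to the controls in 65.9% of the genes called higher and in 62.6% of those called lower. Replicate 3 was the nearest in 7.4% and 2.3%.

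**Figure D1:**
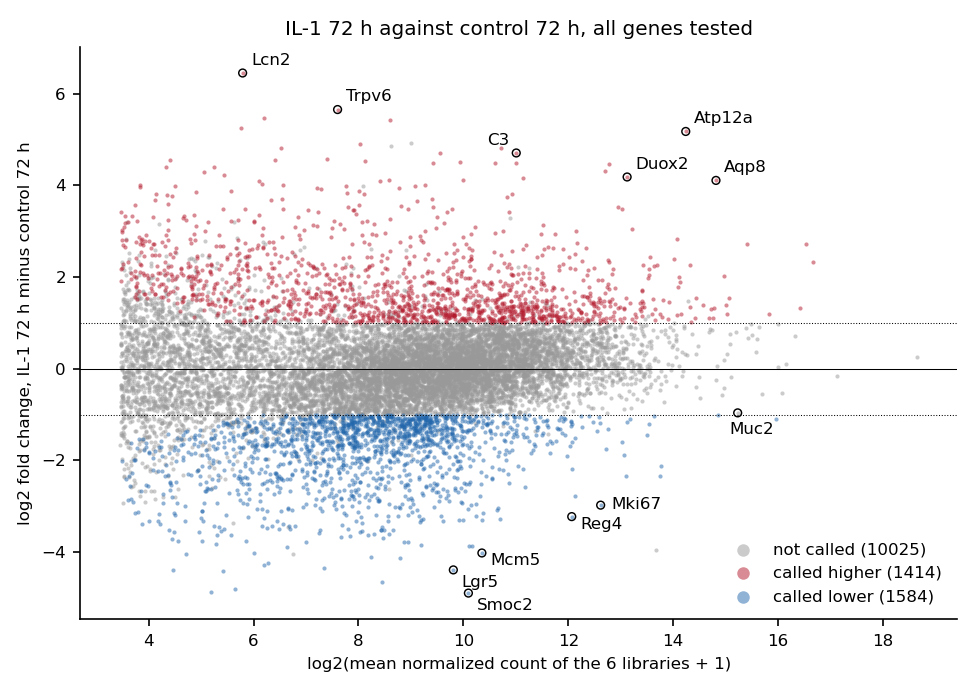
Each point is 1 of the 13023 genes tested; the x axis is log2 of the mean normalized count over the 6 libraries plus 1, and the y axis is the log2 fold change of IL-1 72 h over control 72 h. Called genes, 1414 in red and 1584 in blue, lie outside the dotted lines at a 2-fold change, and grey genes were not called.

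The promoter sequence of a few of these genes shows the kind of element through which the pathways named here are known to act. The sequences are the 160 bases before the RefSeq start (GRCm38.p6), written 5′ to 3′ on the strand of the gene. The first set holds NF-κB target genes that rose, with capitals for letters that match the κB consensus on either strand, where overlapping matches run together:
Cxcl1 (chr5:90891085-90891244, plus strand): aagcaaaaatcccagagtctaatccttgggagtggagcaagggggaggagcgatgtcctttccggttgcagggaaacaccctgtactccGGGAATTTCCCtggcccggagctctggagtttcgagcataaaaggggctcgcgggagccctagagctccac
Cxcl2 (chr5:90903739-90903898, plus strand): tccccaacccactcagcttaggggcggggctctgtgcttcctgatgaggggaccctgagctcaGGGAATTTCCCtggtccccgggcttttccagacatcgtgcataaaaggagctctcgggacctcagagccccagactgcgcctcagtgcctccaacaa
Ccl20 (chr1:83116606-83116765, plus strand): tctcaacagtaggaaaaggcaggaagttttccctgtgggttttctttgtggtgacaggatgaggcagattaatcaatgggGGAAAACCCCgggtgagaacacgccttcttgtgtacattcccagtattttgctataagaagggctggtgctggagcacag
Tnfaip3 (chr10:19015411-19015570, minus strand): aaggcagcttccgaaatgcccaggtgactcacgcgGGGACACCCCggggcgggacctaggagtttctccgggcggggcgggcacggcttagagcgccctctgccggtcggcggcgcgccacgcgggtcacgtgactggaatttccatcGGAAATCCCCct
Nfkbia (chr12:55492648-55492807, minus strand): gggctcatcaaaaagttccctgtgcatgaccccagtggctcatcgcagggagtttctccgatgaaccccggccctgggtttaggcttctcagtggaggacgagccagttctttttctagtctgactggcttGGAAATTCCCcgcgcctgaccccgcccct

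The matches begin 71 and 70 bases before the start in Cxcl1, 97 and 96 in Cxcl2, 80 in Ccl20, 125 and 12 in Tnfaip3 and 29 in Nfkbia. The κB match was not limited to genes that rose. Among the named genes it also occurred in windows of Ccl9 and Neto2, which fell, and of Il1r1, Nfkb2 and Alpi, which were not called. Of all 32851 promoter windows of 300 bases, 4.51% held a κB match on either strand, and of the windows of genes tested 5.21%. The share was 7.15% among windows of genes called higher, 4.17% among those called lower and 57.14% (12 of 21) among the NF-κB subunits and inhibitors tested. The second set holds genes that fell, the DNA replication genes Mcm5 and Pola1 and, from the stem cell list, the cell division gene Cdca7, with capitals for the E2F letters TTTCCCGC or TTTGGCGC, here on the opposite strand:
Mcm5 (chr8:75109349-75109508, plus strand): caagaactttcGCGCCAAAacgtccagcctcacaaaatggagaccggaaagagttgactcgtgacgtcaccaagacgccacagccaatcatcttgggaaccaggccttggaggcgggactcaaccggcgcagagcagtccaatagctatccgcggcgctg
Pola1 (chrX:93632156-93632315, minus strand): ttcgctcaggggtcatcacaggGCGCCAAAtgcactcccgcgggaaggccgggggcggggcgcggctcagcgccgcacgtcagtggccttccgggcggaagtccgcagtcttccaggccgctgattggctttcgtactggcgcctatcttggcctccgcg
Cdca7 (chr2:72476059-72476218, plus strand): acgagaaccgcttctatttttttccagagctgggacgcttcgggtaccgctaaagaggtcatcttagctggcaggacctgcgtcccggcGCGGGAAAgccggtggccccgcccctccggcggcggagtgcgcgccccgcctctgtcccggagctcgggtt

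These matches begin 149, 138 and 71 bases before the start. Among the named genes an E2F match also occurred in windows of Cep128, which fell, and of Gsto2, which rose. Either E2F form occurred in 1.56% of all windows, in 2.77% of those of genes tested, in 1.37% of those of genes called higher, in 6.41% of those called lower and in 33.33% (11 of 33) of those of the S phase genes tested. A match is a run of letters and was not tested for binding in these organoids.

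The IL-1 receptor chains and the adaptor Myd88 were expressed and did not pass the threshold. Il1r1 stood at 259.9, 120.0 and 121.3 in the controls and at 122.8, 92.7 and 64.7 with IL-1, a log2 fold change of -0.78 ± 0.39 (SE; limma adjusted p = 0.148). Il1rap (-0.86 ± 0.28, adjusted p = 0.0455) and Myd88 (-0.74 ± 0.17, adjusted p = 0.0132) had adjusted p-values below 0.05 but changes under 2-fold. Of 11 genes for IL-1 family ligands and receptors, 1 was called higher and 1 lower (18.2% called, against 23.0% of all genes). Without control replicate 2, control replicate 4 or IL-1 replicate 3 the number lower was 0, and without IL-1 replicate 1 there were 2 higher and 2 lower. The riser was Il1f9, also called Il36g, a ligand of the IL-36 receptor, with 2 reads in the controls and 69 with IL-1, a ratio of 42.2 (exact 95% interval 11.2 to 355, counting error only).

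Among 14 adaptors and kinases, Irak2, a kinase that prolongs the signal, was 331.7, 261.0 and 269.7 in the controls and 1152, 855 and 1208 with IL-1 (log2 fold change 1.89 ± 0.19, adjusted p = 0.00247). Irak3, a member of the family that restrains signalling, was 98.5, 80.0 and 103.5 against 38.5, 25.9 and 23.04 (-1.68 ± 0.33, adjusted p = 0.00812). The groups did not overlap for either gene. The other 12 adaptors and kinases were not called, so 14.3% of the list was called, against 23.0% of all genes. An adjusted p below 0.05 was found for 7 of the 14. Without IL-1 replicate 2, 2 were called higher.

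Several feedback inhibitors of NF-κB rose, and its 5 subunits did not pass the threshold. Of the 19 NF-κB genes tested, 7 were higher (36.8%, against 10.9% of all genes) and 0 lower. The number higher was 6 to 7 when each library was left out, and the median log2 fold change was 0.21. Tnfaip3, the deubiquitinase A20, was 699, 874 and 947 in the controls and 2634, 2354 and 2243 with IL-1 (1.53 ± 0.16, adjusted p = 0.00248). Nfkbia was 951, 997 and 1046 against 8226, 3109 and 2953 (2.08 ± 0.36, adjusted p = 0.00552). In both genes the lowest IL-1 library stood above the highest control by more than the spread of the controls. The inhibitors Nfkbib, Nfkbie and Nfkbid were not called. Zc3h12a, an RNase that degrades inflammatory mRNAs, rose by 2.40 ± 0.39, and Nfkbiz, a nuclear cofactor of NF-κB, by 2.16 ± 0.25 on the log2 scale. The subunits Rela, Nfkb1 and Nfkb2 had log2 fold changes of -0.09, -0.11 and 0.21, with adjusted p-values of 0.69, 0.581 and 0.338. Relb, at 0.75 ± 0.14, had an adjusted p of 0.00616 but stayed under 2-fold.

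Some chemokines that attract neutrophils and lymphocytes rose from low levels. Cxcl1 was 8.87, 24.8 and 18.7 in the controls and 166, 115 and 69.1 with IL-1 (log2 fold change 2.69 ± 0.49, adjusted p = 0.00639). Cxcl2 was 0.89, 7.62 and 1.70 against 59.0, 77.7 and 27.4 (3.86 ± 0.71, adjusted p = 0.00648). Of the 6 CXC ligands tested 2 were called (33.3%, against 23.0% of all genes). With any 1 library left out the number was again 2. Ccl20, a ligand of Ccr6, was 15.97, 64.8 and 40.7 against 114, 711 and 321 (3.05 ± 0.72, adjusted p = 0.0142), and the adjusted p was 0.0503 without IL-1 replicate 3. Ccl9 went the other way, from 223, 164 and 143 to 12.0, 38.9 and 16.5 (-3.07 ± 0.46, adjusted p = 0.00381).

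Enzymes that make reactive oxygen and nitric oxide were among the largest risers. Duox2 (chr2:122279247-122298449, minus strand), an oxidase of the apical membrane that releases hydrogen peroxide, was 886, 814 and 862 in the controls and 27608, 12032 and 11281 with IL-1, a log2 fold change of 4.18 ± 0.32 (adjusted p = 0.00198). Its maturation factor Duoxa2 rose from 168.5, 64.8 and 67.8 to 6520, 1588 and 1638 (4.81 ± 0.59, adjusted p = 0.00295). Nos2 (chr11:78920787-78960254, plus strand), the inducible nitric oxide synthase, was 71.0, 362 and 405 against 5624, 4927 and 2188 (4.16 ± 0.67, adjusted p = 0.00439). IL-1 replicate 1 was the highest library for all 3 genes. Of 8 oxidase and nitric oxide genes tested, 5 rose (62.5%, against 10.9% of all genes), 0 fell and the median was 1.57. The number that rose was 4 to 5 with a library left out. Without control replicate 1 or IL-1 replicate 2, 1 was called lower.

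Antimicrobial and acute phase proteins changed in both directions. Of 12 tested, 6 rose and 2 fell (66.7% called, against 23.0% of all genes). With a library left out 6 to 7 rose and 2 fell. Lcn2 (chr2:32384633-32388252, minus strand), which binds bacterial siderophores, had 1 read in the 3 controls together and 297 with IL-1, a ratio of 363 (exact 95% interval 64.7 to 14387, counting error only), and stood at 125, 114 and 86.7 in the 3 IL-1 libraries. Saa1, an acute phase protein, was 134, 137 and 148 against 1781, 2205 and 7836 (log2 fold change 4.48 ± 0.50, adjusted p = 0.00264), and reads of its near-identical relatives may be shared with it. Complement C3 was 77.2, 197 and 214 against 3130, 4698 and 4036 (4.71 ± 0.38, adjusted p = 0.00198). The genes that fell, Retnlb (-4.88 ± 0.64) and the ribonuclease Ang4 (-2.68 ± 0.60), are products of goblet and deep crypt secretory cells. Retnlb went from 53.2, 88.6 and 65.3 to 0, 2.99 and 2.19.

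**Figure D2:**
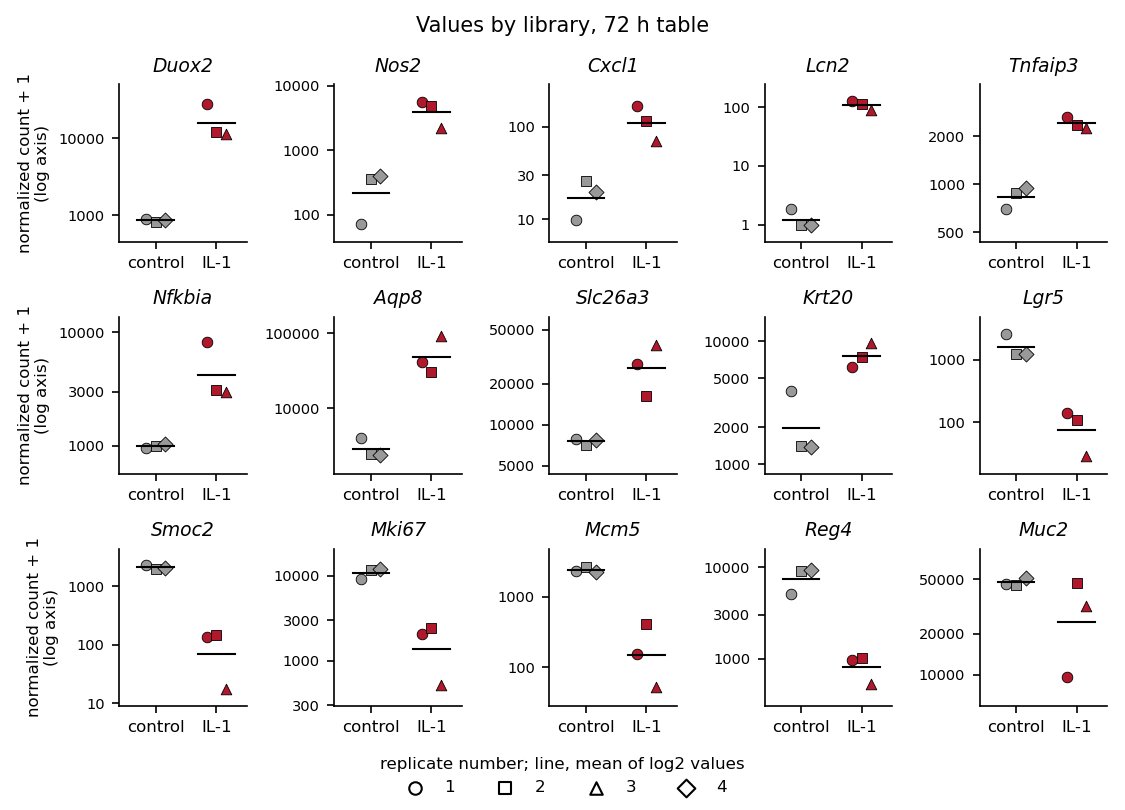
Normalized counts plus 1 of 15 genes in each of the 6 libraries, on log axes that differ between panels; grey, controls, red, IL-1 72 h, shape the replicate number, line the mean of the log2 values. The groups do not overlap in any panel except that of Muc2, where IL-1 replicate 2 lies among the controls.

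Many absorptive colonocyte genes rose. Of 32 tested, 15 were higher (46.9%, against 10.9% of all genes), 0 lower and 17 not called. The number higher was 12 to 17 with a library left out, and the median log2 fold change was 1.37 against -0.000856 over all genes. Atp12a (chr14:56365068-56388550, plus strand), the colonic proton and potassium pump, was 222, 1908 and 1826 in the controls and 47653, 15901 and 48566 with IL-1 (5.18 ± 0.83, adjusted p = 0.00451). Aqp8 (chr7:123462291-123468004, plus strand), a water and hydrogen peroxide channel of surface colonocytes, was 3925, 2415 and 2388 against 40946, 30701 and 92693 (4.11 ± 0.40, adjusted p = 0.00231). Slc26a3, the chloride and bicarbonate exchanger of surface colonocytes, was 7848, 7121 and 7677 against 28225, 16211 and 38312 (1.78 ± 0.29, adjusted p = 0.00467). IL-1 replicate 2 was the lowest treated library for each of these genes and still stood above every control. The carbonic anhydrase Car4 rose by 2.52 ± 0.42, the adhesion molecule Ceacam20 by 3.10 ± 0.25 and the differentiation keratin Krt20 by 1.94 ± 0.40. The intestinal alkaline phosphatase Alpi was 302, 83.8 and 141 against 51.8, 841 and 2271 and was not called (adjusted p = 0.333), since the IL-1 libraries lay on both sides of the controls.

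Solute carriers were called about as often as genes in general. Of 221 tested, 38 were higher and 19 lower, which is 25.8% against 23.0% of all genes, and 26 to 44 were higher with a library left out. The number lower was 10 without control replicate 2 and 25 without IL-1 replicate 2. Trpv6, an epithelial calcium channel, was 2.66, 7.62 and 7.63 in the controls and 311, 167 and 664 with IL-1 (5.66 ± 0.58, adjusted p = 0.00247). The iron exporter Slc40a1 was 1573, 2099 and 1968 against 20363, 7811 and 23206 (3.05 ± 0.38, adjusted p = 0.00295). Slc13a2, a citrate and succinate transporter, rose by 3.43 ± 0.43, and reads of it and its antisense gene Slc13a2os could not be told apart because the strand setting of the counts is not given in the sources used here. Among the transport genes that the study itself names, Chp2, a cofactor of sodium and proton exchange, was 930, 907 and 988 against 5513, 2518 and 3733 (1.98 ± 0.26, adjusted p = 0.00312). The aromatic amino acid transporter Slc16a10 was 111, 128 and 119 against 21.7, 22.9 and 9.87 (-2.73 ± 0.40, adjusted p = 0.00356). Slc16a9 (1.76 ± 0.51, adjusted p = 0.029) and Fxyd3 (-1.37 ± 0.45, adjusted p = 0.044) were not stable. Without control replicate 2, without control replicate 4, without IL-1 replicate 1 or without IL-1 replicate 3, the adjusted p was 0.0921, 0.101, 0.0743 or 0.0999 for Slc16a9. In the same order it was 0.13, 0.17, 0.102 or 0.114 for Fxyd3. The study chose these transport genes on samples of this series, so this list is not independent evidence of a direction.

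The stem cell and Wnt target genes that were called were all lower. Of 28 tested, 14 were lower (50.0%, against 12.2% of all genes) and 0 higher, and the median was -1.25. The number lower was 12 to 17 with a library left out and 8 with the replicate number as a block. Without IL-1 replicate 1, 1 was called higher. Lgr5 (chr10:115450311-115587780, minus strand), the receptor for R-spondins that marks crypt base stem cells, was 2606, 1237 and 1255 in the controls and 142, 108 and 27.4 with IL-1 (-4.39 ± 0.60, adjusted p = 0.00321). Smoc2 (chr17:14279506-14404790, plus strand), a matrix protein of the same cells, was 2270, 1920 and 2075 against 135, 144 and 16.5 (-4.89 ± 0.74, adjusted p = 0.00385). Ascl2, a stem cell transcription factor, fell by 2.38 ± 0.47 on the log2 scale. IL-1 replicate 3 was the lowest library for Lgr5 and Smoc2, and for both genes every treated library stood below every control.

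Most cell cycle genes fell. Of 42 S phase genes tested, 38 were lower (90.5%, against 12.2% of all genes) and 0 higher. Their median log2 fold change was -2.68. Of 54 G2/M genes 44 were lower (81.5%) and 0 higher, with a median of -2.47. Leaving out a library gave 38 to 39 and 38 to 44. Mki67, the antigen of dividing cells, was 9086, 11691 and 11905 in the controls and 2085, 2413 and 516 with IL-1 (-2.98 ± 0.53, adjusted p = 0.00575). Mcm5, a subunit of the replicative helicase, was 2319, 2636 and 2270 against 152, 415 and 50.5 (-4.02 ± 0.64, adjusted p = 0.00434). Pola1, the catalytic subunit of the DNA polymerase that makes primers, fell by 3.78 ± 0.53, and the replication checkpoint adaptor Clspn by 4.12 ± 0.75. In bulk RNA fewer cells of a type and less RNA per cell cannot be told apart.

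**Figure D3:**
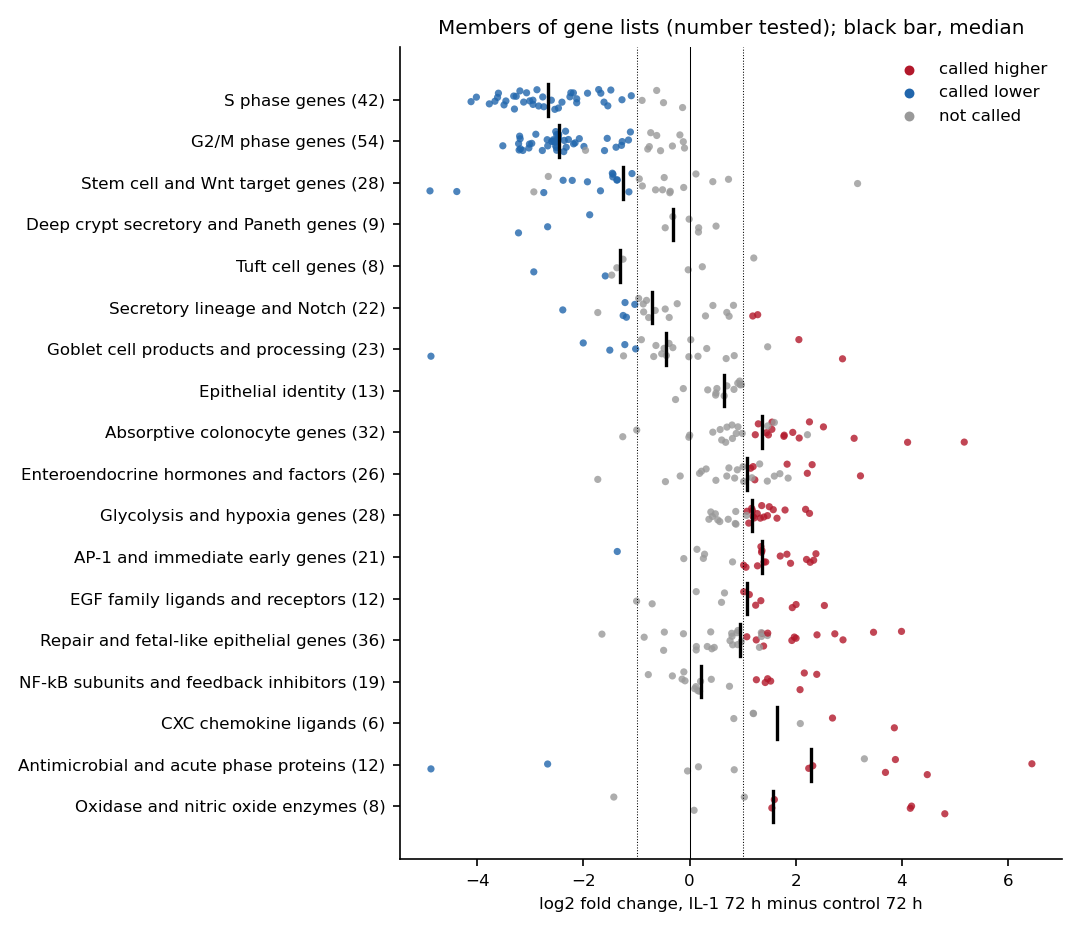
Log2 fold change of IL-1 72 h over control 72 h for every tested member of 18 gene lists, with the number tested in brackets; red and blue points were called higher and lower, grey points were not called, the bar is the median and dotted lines mark a 2-fold change. The S phase (-2.68) and G2/M (-2.47) medians lie furthest to the left, and the absorptive colonocyte median is 1.37.

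Goblet cell and mucin genes were called in both directions or not at all. Muc2 (chr7:141690340-141754693, plus strand), the main secreted mucin of goblet cells, was 46324, 44984 and 51066 in the controls and 9702, 46715 and 31766 with IL-1, and the change of -0.96 ± 0.52 was not called (adjusted p = 0.175). Of 9 mucins tested 2 rose, both membrane bound (22.2% called, against 23.0% of all genes). Muc1 (chr3:89229057-89233381, plus strand) was 16.9, 148 and 114 against 1567, 733 and 1135 (4.02 ± 0.75, adjusted p = 0.00658). Muc13 was 10309, 13507 and 13571 against 66628, 36252 and 53138 (2.03 ± 0.26, adjusted p = 0.00295). Of 23 goblet cell genes, 2 were higher and 5 lower (30.4% called, against 23.0% of all genes). These counts depended on the libraries. Without control replicate 2 or 4 they were 1 and 2, without IL-1 replicate 1 they were 5 and 3, without IL-1 replicate 2 they were 0 and 7, and without IL-1 replicate 3 they were 0 and 1. The goblet cell factors Atoh1 (-0.87 ± 0.46, adjusted p = 0.168) and Spdef (-0.81 ± 0.30, adjusted p = 0.0672) were not called. Without IL-1 replicate 2 both were called lower, at -1.31 (adjusted p = 0.0441) and -1.15 (adjusted p = 0.01).

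Deep crypt and enteroendocrine genes were called in opposite directions. Of 9 deep crypt and Paneth genes, 3 were lower (33.3%, against 12.2% of all genes), 0 higher and 6 not called. Their median was -0.32, and 3 of the 9 had a log2 fold change above 0. Reg4, a marker of deep crypt secretory cells, was 5025, 9001 and 9205 against 963, 1002 and 525 (-3.23 ± 0.32, adjusted p = 0.00231), and the receptor Kit fell by 1.88 ± 0.33. Of 26 enteroendocrine genes, 7 were higher (26.9%, against 10.9% of all genes) and 0 lower, with a median of 1.09. The number higher was 11 without control replicate 1 and 4 without control replicate 4. It was 5 with control replicates 2 and 4 averaged and 2 with the replicate number as a block. Tph1, the enzyme of serotonin synthesis in enterochromaffin cells, was 120, 40.0 and 27.1 against 324, 485 and 714 (3.22 ± 0.55, adjusted p = 0.00504). The hormone Pyy was 306, 837 and 778 against 1412, 3577 and 4002 (2.22 ± 0.49, adjusted p = 0.0117).

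Some genes of epithelial repair and of growth factor signalling rose. Of 36 repair and fetal-like genes, 13 were higher (36.1%, against 10.9% of all genes), 0 lower and 23 not called. The number higher was 11 to 14 with a library left out, and the median was 0.94. Sprr1a, a cornified envelope precursor, was 995, 1211 and 1431 in the controls and 8047, 7469 and 8534 with IL-1 (2.74 ± 0.16, adjusted p = 0.0018). Plet1, an adhesion-related protein of progenitors, was 47.9, 41.0 and 42.4 against 2251, 287 and 555 (3.99 ± 0.66, adjusted p = 0.00463). Of 12 EGF family genes 7 rose (58.3%, against 10.9% of all genes) and 0 fell. With a library left out 5 to 6 rose. The ligands Areg, Hbegf and Epgn rose by 2.01 ± 0.45, 1.94 ± 0.20 and 2.54 ± 0.54 on the log2 scale, and so did Errfi1, a feedback inhibitor of the EGF receptor, by 1.34 ± 0.17. The medium of every library already contained EGF.

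Most immediate early and hypoxia genes tested rose as well. Of 21 AP-1 and immediate early genes, 15 were higher (71.4%, against 10.9% of all genes) and 1, Myc, was lower. The number higher was 12 to 15 with a library left out, and the median was 1.36. Junb was 1712, 1333 and 1389 in the controls and 8227, 5544 and 6814 with IL-1 (2.20 ± 0.18, adjusted p = 0.00198). The phosphatase Dusp1, which switches off MAP kinases, rose by 2.34 ± 0.21, and the stress factor Atf3 by 2.38 ± 0.33. Of 28 glycolysis and hypoxia genes 17 were higher (60.7%, against 10.9% of all genes) and 0 lower. The number higher was 14 to 18 with a library left out, and the median was 1.18. Egln3, a prolyl hydroxylase that marks HIF proteins for destruction, was 5948, 3769 and 3893 against 28470, 16697 and 20217 (2.26 ± 0.26, adjusted p = 0.00264). Aldoc, an aldolase, rose by 1.65 ± 0.13.

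The treatment was next compared with IL-17A for 72 h, at the same dose and time, by scaling the reads of both sets of libraries together. Of 12860 genes tested none (0.0%) was called by limma or by edgeR. A total of 35 genes had an unadjusted p below 0.05 by limma and 53 by edgeR. The median absolute log2 difference was 0.165, and 2.76% of genes differed by 2-fold or more. The same-numbered libraries of both treatments deviated together (correlations of 0.583, 0.443 and 0.749 across genes). The mean chi-square per gene between IL-1 and IL-17A was 9.2 for the libraries numbered 1 and 20.2 for those numbered 3. For those numbered 2 it was 121, and between IL-1 replicates 1 and 3 it was 96.7. Why the libraries numbered 1 and 3 lay close across the treatments was not tested. With the replicate number as a block 406 genes had an unadjusted p below 0.05, and the smallest adjusted p was 0.79. The absence of calls does not show that the cytokines act alike, because the IL-17A libraries were spread widely: Aqp8 was 37208, 5016 and 108705 in IL-17A replicates 1, 2 and 3 and 41482, 30984 and 93833 with IL-1 on the joint scale. For Mki67 the values were 2830, 7442 and 691 with IL-17A and 2112, 2436 and 522 with IL-1. IL-17A replicate 2 was the nearest of these treated libraries to the controls for both genes.

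Both treatments share the 72 h control libraries, so their changes are given side by side only. Against those controls the S phase median was -2.68 with IL-1 and -2.11 with IL-17A, the absorptive colonocyte median 1.37 and 0.96, and the NF-κB median 0.21 and 0.47. Duox2 changed by 4.18 and 5.06 on the log2 scale, Nos2 by 4.16 and 4.62, Trpv6 by 5.66 and 5.02 and C3 by 4.71 and 3.39. Lgr5 was not analysed here in the IL-17A libraries.

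Treated libraries at 72 h were then compared with IL-1 for 12 h, which bypasses the controls whose reads stand under 2 labels. Of 12886 genes tested, 1166 (9.05%) were higher at 72 h and 1369 (10.6%) lower. The counts depended on single libraries: they were 727 and 675 without 12 h replicate 3, 685 and 583 without 12 h replicate 4, and 666 and 809 without 72 h replicate 3. The IL-1 72 h libraries are the same as in the comparison with the controls, so changes shared with that comparison are no separate evidence. Treatment time and time in culture cannot be told apart in this comparison.

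Some genes of the inflammatory response stood at similar levels at both times, others rose further and some were lower at 72 h. On the joint scale Nos2 was 4902, 4088 and 3612 in the 12 h IL-1 libraries (replicates 1, 3 and 4) and 5698, 4972 and 2215 at 72 h, with a log2 difference of -0.07 (adjusted p = 0.885). Tnfaip3 was 2546, 2372 and 2115 against 2669, 2375 and 2271 (0.06, adjusted p = 0.796). Cxcl1 was 96.5, 94.6 and 107 against 168, 116 and 70.0 (0.16, adjusted p = 0.754). The times overlapped for each of these genes. Duox2 was 9341, 6604 and 5786 at 12 h and 27970, 12143 and 11420 at 72 h, and it was called higher at the later time (1.15, adjusted p = 0.0352). Lcn2 was 29.7, 20.0 and 19.8 at 12 h and 126.8, 114.6 and 87.7 at 72 h (2.20, adjusted p = 0.00598). Of 11 antimicrobial and acute phase genes tested, 5 were higher and 2 lower at 72 h than at 12 h. Of 6 CC and CX3C chemokine ligands tested, 2 were lower at 72 h and 0 higher, with a median log2 difference of -0.491. Among 8 other cytokines 2 were lower and 0 higher, with a median of -0.578. Over all genes 9.05% were higher and 10.6% lower. None of the 19 NF-κB genes tested was called between the times.

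The differentiation and cell cycle lists differed between the times. Of the 42 S phase genes 36 were lower at 72 h than at 12 h and 0 higher, and of the 54 G2/M genes 43 were lower and 0 higher. Of the 32 absorptive genes 16 were higher and 0 lower. Aqp8 was 7248, 3161 and 3025 with IL-1 at 12 h and 41482, 30984 and 93833 at 72 h (log2 difference 3.59, adjusted p = 0.0052). Mki67 was 7749, 11766 and 11937 at 12 h and 2112, 2436 and 522 at 72 h (-2.89, adjusted p = 0.00733). Junb was 2703, 1478 and 1436 against 8335, 5595 and 6898 (1.93, adjusted p = 0.0057). The libraries did not overlap between the times for any of these 3 genes. Within each table, against its control columns, the S phase median was -0.03 at 12 h and -2.68 at 72 h. The absorptive median was -0.02 and 1.37, and the AP-1 median 0.01 and 1.36. Of the 3 controls, 2 hold the same reads in both tables, so these medians do not rest on separate, time-matched controls.

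**Figure D4:**
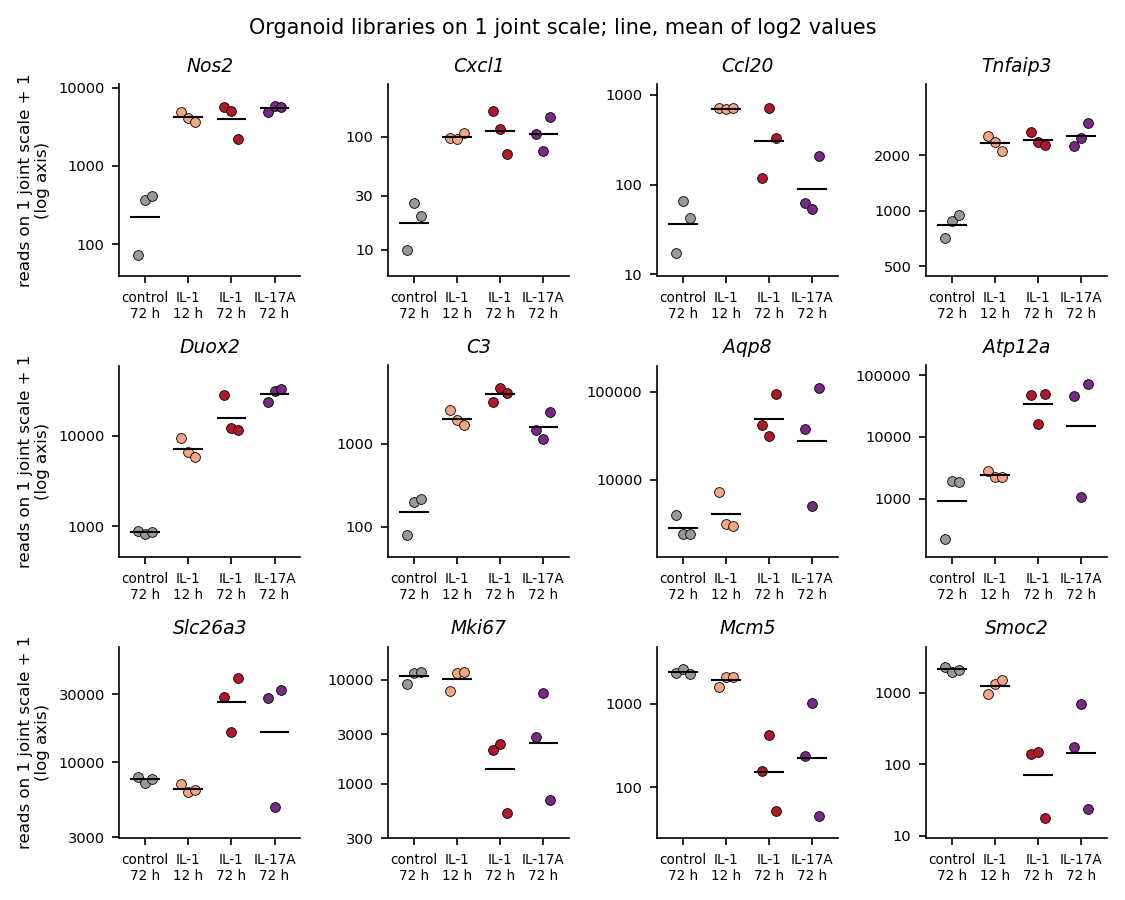
Reads on 1 joint scale plus 1, log axes, for 12 genes in the control 72 h, IL-1 12 h, IL-1 72 h and IL-17A 72 h libraries (3 each); points are libraries and lines the means of the log2 values. Nos2, Cxcl1 and Tnfaip3 stand near 1 level in the 3 treated groups, whereas for Aqp8 and Mki67 the 12 h libraries overlap the controls and IL-17A replicate 2 lies between the controls and the other 72 h treated libraries.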

How the data were processed

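Colonic organoid libraries were made by the authors with a SMARTER mRNA kit. The submitters' processing notes name STAR 2.5.3, DESeq2 1.28.1 and the build mm10. The counting program, annotation and strand setting are not given in the sources used here. The deposited signal is DESeq2-normalized counts, 1 table per treatment and time, each with control columns, some of which hold the same reads in several tables. All values in a column were whole multiples of 1 step, so whole reads were recovered by division, and each column's total is its depth. In R 4.3.3, log2(value + 1) of 13023 genes with a mean of at least 10 was tested with limma 3.58.1 (trend), Benjamini-Hochberg adjusted, and called at adjusted p below 0.05 and a log2 fold change of at least 1. Fold changes on this scale understate the change of low genes. Comparisons across tables used recovered reads with joint median-of-ratios size factors. The fits were tested on simulated data with 200 changed genes. A count of 0 was bounded at 3 reads; intervals cover counting error only.

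The replicate numbers pair IL-1 72 h with IL-17A 72 h, where every same-numbered correlation of deviations was over 0.1. The members and lists were chosen with earlier results of these data known. Named genes were those the study names, the 12 largest rises and falls among called genes without overlap, and up to 4 called members a list with defining members. Alternatives were another pseudocount (0.1 or 10), a filter at a mean of 50 or none, upper-quartile and TMM scaling, edgeR 4.0.16, DESeq2 1.42.0, unadjusted p, the replicate block and each library left out. Averaging control replicates 2 and 4 was added after seeing the data. Cell cycle lists came from Seurat 5.3.0. Gene positions come from the GENCODE annotation of GRCm38, and promoters from RefSeq, with a window for 158 of 192 named genes. In the 3 tables used, 0 columns were left unused. The other 9 tables were not used here.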

Additional observations from a re-analysis of the deposited data

Results flagged for a closer look

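The effect of IL-1 differed between the times by a test of the interaction over the 72 h and the 12 h tables. With limma, 950 genes were called with a higher effect at 72 h than at 12 h and 1306 with a lower one. The tables share control reads under different replicate numbers, so these reads enter the fit in both tables and the p-values are too small. The direct comparison of treated libraries, which uses no controls, called 1166 and 1369. Groups of 3 libraries were not tested for outlying samples.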

How the results depend on the processing

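The numbers of genes called against control stayed within 1.5 times of 1414 higher and 1584 lower under the other pseudocounts, filters, scalings and tools tried, and none of the 2998 genes changed sign. Leaving out a library gave 963 to 1518 higher, 1079 to 1868 lower and 2081 to 3386 in all. The replicate block gave 794 higher, 719 lower and 1513 in all, of which 1470 were among the 2998. Controls and IL-1 libraries share the numbers 1 and 2 only. Their same-numbered correlations were 0.184 and 0.2, both over the 0.1 used for IL-17A. Across these numbers they were -0.237 and -0.149. Control replicate 4 also gave 0.2 with IL-1 replicate 2, so whether the numbers mark pairs was not settled. With control replicate 2 alone, 1 gene was higher, 0 lower and 1 called in all, since 1 control leaves the spread to the IL-1 libraries. Averaging control replicates 2 and 4 gave 2196. No pair of columns within the 72 h IL-1 table agreed within counting noise, control replicates 2 and 4 included, so no columns were averaged on that ground. Against IL-1 12 h, leaving out a library gave 666 to 1319 higher, 583 to 1660 lower and 1268 to 2960 in all, and against IL-17A 0 in each direction. Of the 190 named genes tested, 42 lost their call under the block, 30 with the controls averaged and at most 31 when 1 library was left out. Another scaling moved the median of all genes by at most 0.0364 on the log2 scale.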

Other observations

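Other groups of genes moved with IL-1 at 72 h. Of 35 cytochrome P450 enzymes tested, 14 were higher and 3 lower (48.6% called, against 23.0% of all genes). With a library left out 12 to 16 were higher. The number lower was 0 without control replicate 4 and 1 without control replicate 1, control replicate 2 or IL-1 replicate 1. Cyp2d9 was 63.9, 74.3 and 88.2 in the controls and 2369, 949 and 2308 with IL-1 (log2 fold change 4.51 ± 0.36, adjusted p = 0.00198 by limma), and its close relatives Cyp2d22 (4.70 ± 0.79) and Cyp2d34 (3.49 ± 0.30) may share reads with it. Of 26 UDP-glucuronosyltransferases and glutathione transferases, 6 were higher (23.1%) and 0 lower. Over all genes 10.9% were higher and 23.0% were called in either direction. The number higher was 4 to 10 with a library left out, and 10 without IL-1 replicate 2. Redox genes split, with the peroxiredoxin Prdx6 at 7805, 13574 and 12481 against 66060, 52529 and 109115 (2.72 ± 0.33, adjusted p = 0.00292) and the epithelial glutathione peroxidase Gpx2 at 20173, 24713 and 21313 against 7628, 7515 and 2253 (-2.12 ± 0.44, adjusted p = 0.00952). Steap4, a metalloreductase, rose by 3.81 ± 0.27.

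Of 55 intraflagellar transport, BBS and centrosomal genes, 22 were lower (40.0%, against 12.2% of all genes) and 1 higher. The number lower was 12 without control replicate 2, 14 without control replicate 4 and 25 without IL-1 replicate 2. With the replicate number as a block it was 7. Cep97 was 145, 146 and 150 in the controls and 30.1, 34.9 and 21.9 with IL-1 (-2.33 ± 0.30, adjusted p = 0.00295). In the BMP and TGF-β pathway, 5 of 25 genes were higher and 2 lower (28.0% called, against 23.0% of all genes), and 3 were higher without control replicate 1. Bmp2, a ligand of the upper crypt, was 533, 623 and 706 against 4169, 3117 and 4869 (2.69 ± 0.20, adjusted p = 0.00198), its target Id1 rose by 1.62 ± 0.22, and Bmp7 and the receptor Tgfbr1 fell by 2.46 ± 0.44 and 1.57 ± 0.23. Claudin genes, which seal tight junctions, had 4 of 9 higher and 1 lower (55.6% called, against 23.0% of all genes). Cldn4 was 4859, 4413 and 4499 against 24636, 11987 and 19791 (1.97 ± 0.26, adjusted p = 0.00304). Cldn2, a claudin that forms cation pores, was 2867, 2629 and 2675 against 1681, 602 and 314 (-1.99 ± 0.52, adjusted p = 0.0197), and the adjusted p was 0.051 to 0.0544 when a control or IL-1 replicate 2 was left out.

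Prostaglandin genes moved in both directions, with 3 of 12 higher and 3 lower (50.0% called, against 23.0% of all genes). Ptges, which makes prostaglandin E2, was 69.2, 111 and 138 against 1248, 436 and 634 (2.77 ± 0.42, adjusted p = 0.00385), the prostaglandin transporter Slco2a1 rose by 2.43 ± 0.39, and the phospholipase Pla2g4a fell by 1.81 ± 0.25. Of 92 cytosolic ribosomal protein genes 0 were higher and 2 lower (2.17% called, against 23.0% of all genes). Of these 2, Rps6ka6 is a kinase whose symbol matched the family pattern. The number lower was 0 without control replicate 2 and 5 without IL-1 replicate 2. Of 36 complex I subunits 1 was higher and 0 lower (2.78% called). Of 24 mucin glycosylation enzymes 4 were higher and 1 lower (20.8%, against 23.0% of all genes). Without control replicate 1 the number lower was 4, without IL-1 replicate 2 it was 3, and without control replicate 2, control replicate 4 or IL-1 replicate 3 it was 0. The number higher was 2 without control replicate 4 or IL-1 replicate 3. St3gal4, a sialyltransferase, was 3904, 3367 and 3457 against 15660, 14124 and 32036 (2.43 ± 0.30, adjusted p = 0.00295).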
